A study of Homo sapiens with 15 samples.

Results

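The RHBDD2-CKO clone and the MAGI2-CKO clone of HEK293T cells were compared with each other, gene by gene, from 3 RNA-seq libraries of each clone. These 6 of the 15 libraries of the series were chosen by their labels, and the Non-target clone was not in the contrast. HEK293T is a human embryonic kidney line that carries the SV40 large T antigen. In the study both genes came from a screen of supporting cells for genes whose loss changed the response of co-cultured leukemia cells to cytarabine, and clones were also made for C9orf89 (now CARD19) and MLPH. RHBDD2-CKO cells were transduced with lentiCRISPRv2 carrying Cas9 and a guide against RHBDD2, MAGI2-CKO cells with the same vector and a guide against MAGI2, and both were selected with puromycin. Each was then taken as 1 clone by limiting dilution, and the study's methods describe a western blot for RHBDD2 and flow cytometry for MAGI2. The 3 libraries of a clone came from 3 wells, so the p-values measure the spread between wells, and the deleted gene cannot be told apart from any other difference between the clones. The labels name no drug and no co-culture for these samples.

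RHBDD2 encodes a rhomboid-like membrane protein of the Golgi apparatus, a relative of proteases that cut within the membrane. MAGI2 encodes a scaffold with several PDZ domains that holds receptors and adhesion molecules at the inner face of the membrane. CXCL12 is a secreted chemokine, CXCR4 its signalling receptor and ACKR3 a receptor that removes it. In bone marrow, CXCL12 from stromal cells holds blood-forming and leukemic cells in their niche.

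Both guides cut on the long arm of chromosome 7, and they are shown because they define the groups. The capitals mark bases found in exons of the GENCODE v29 transcripts (GRCh38), 5′ to 3′.
RHBDD2 guide: gctcacCTTGCCAGTTGCGA
MAGI2 guide: TGACAACCTCTACCTCCGCA
The RHBDD2 guide lies on the strand opposite to the gene. Its 14 capital bases match the last bases of exon 1 of a protein-coding transcript with 4 exons, at chr7:75879247-75879260 in the coding sequence, with AGG beside them as the PAM. In a protein-coding transcript with 5 exons the same bases lie outside the coding sequence. Its other 6 bases run past the exon end, and the intron was not checked here. All 20 bases of the MAGI2 guide match the gene's own strand in exon 2, at chr7:79007099-79007118 in the coding sequence of 4 protein-coding transcripts, followed by CGG.

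The deposited values are FPKM, fragments scaled to exon length and library size. The whole fragments behind them were recovered and numbered 18008448, 16209432 and 15517856 in the 3 RHBDD2-CKO libraries and 19489918, 18973593 and 19423812 in the 3 MAGI2-CKO libraries. Of 58735 genes listed, 16175 had at least 0.5 FPKM in at least 3 of all 15 libraries and were tested. At the edge of this filter, the third highest of the 15 values was 0.5002 FPKM for HIST1H4B, just inside, and 0.4999 FPKM for RGPD5, just outside. Replicate 1 stood apart in all 5 groups. In the clones its chi-square distance per gene from the other replicates was 20.9 and 18.5 in RHBDD2-CKO and 15.6 and 18 in MAGI2-CKO, against 2.40 and 3.18 between replicates 2 and 3, and in the other groups it was 14.6 to 24.8 against 3.00 to 6.54. All 8 markers of HEK293T cells passed the filter, but not all were at similar levels in both clones. LIN28B averaged 20.6 FPKM in RHBDD2-CKO and 18.8 FPKM in MAGI2-CKO, and KRT18 12.5 and 14.6 FPKM. NEFM averaged 1.34 FPKM in RHBDD2-CKO and was nearly absent from MAGI2-CKO (0.0274 FPKM). NEFL was low in RHBDD2-CKO, as described further on. None of 12 myeloid markers passed the filter (without it 2 of 10 with a fragment were called, both higher in MAGI2-CKO), and their summed level was 0.209 to 0.298 FPKM in RHBDD2-CKO and 0.435 to 0.697 FPKM in MAGI2-CKO, with SPI1 the most abundant in MAGI2-CKO (mean 0.273 FPKM), LYZ in RHBDD2-CKO (mean 0.0995 FPKM), and MPO and CTSG at 0 in all 15. Of 12 markers of mesenchymal stromal cells 5 passed the filter, and 2 of them, COL1A1 and TWIST2, were higher in MAGI2-CKO (1 without MAGI2-CKO replicate 2 or 3 or RHBDD2-CKO replicate 1). Their summed level was 6.80 to 8.23 FPKM in RHBDD2-CKO and 9.42 to 13 FPKM in MAGI2-CKO, with COL1A1 the most abundant, and the means of THY1, DCN and COL1A2 were between 0 and 0.0116 FPKM in both clones.

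The clones differed widely. By limma with Benjamini-Hochberg adjustment over all tested genes, 6726 of 16175 genes (41.6%) passed an adjusted p of 0.05, and 1534 (9.48%) also differed by at least 2-fold on the log2(FPKM + 0.1) scale. Of the former, 3483 (21.5% of those tested) were higher in RHBDD2-CKO and 3243 (20.0%) higher in MAGI2-CKO. Of the latter 676 (4.18%) were higher in RHBDD2-CKO and 858 (5.30%) in MAGI2-CKO. The libraries of the clones did not overlap for 8278 genes (51.2%). The median log2 difference, RHBDD2-CKO minus MAGI2-CKO, was -0.01. All list counts below are to be read against these shares, and fewer cells with a transcript cannot be told apart from less transcript per cell.

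**Figure D1:**
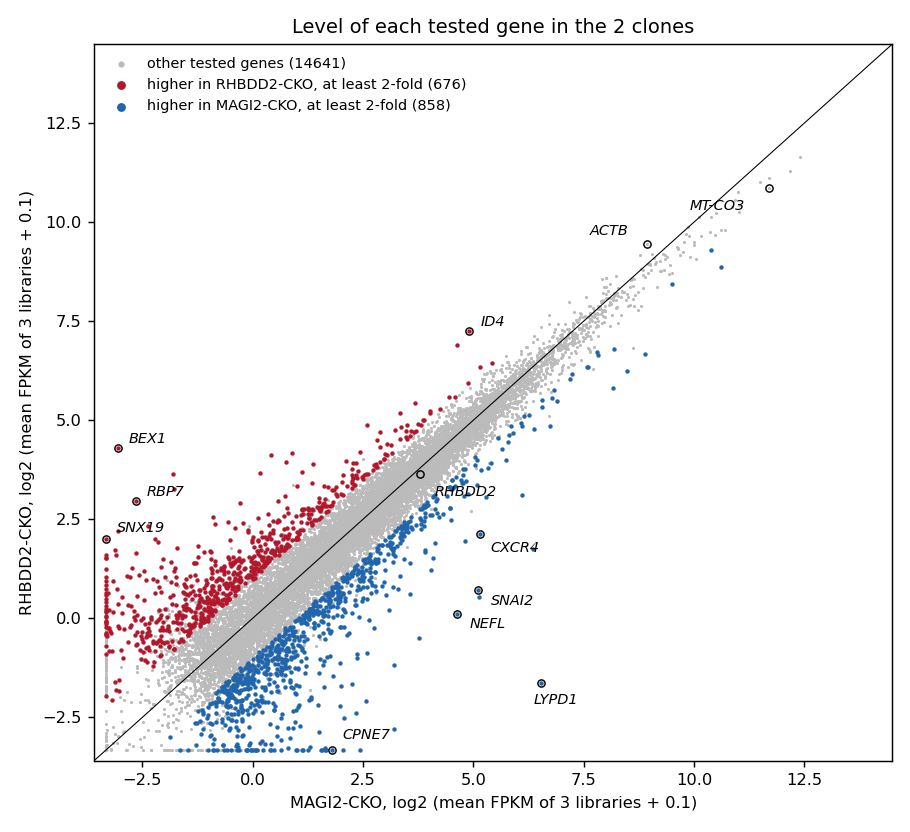
Mean level of each tested gene in MAGI2-CKO (horizontal) and RHBDD2-CKO (vertical), as log2(mean FPKM of 3 libraries + 0.1). Coloured points are the 676 genes higher in RHBDD2-CKO (red) and the 858 higher in MAGI2-CKO (blue) by at least 2-fold with an adjusted p under 0.05, grey points the other tested genes, and the line marks equal levels. LYPD1, NEFL, SNAI2 and CXCR4 lie far below the line, and BEX1, RBP7 and SNX19 far above it.

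The targeted genes themselves did not separate the clones. RHBDD2 RNA measured 11.2, 13.5 and 12.4 FPKM in RHBDD2-CKO and 11.7, 13.8 and 16 FPKM in MAGI2-CKO. These values overlapped (log2 difference -0.15, SE 0.14, 95% interval -0.45 to 0.14, limma adjusted p = 0.405), and both clones lay below the means of the other groups, 25.5 FPKM in MLPH-CKO, 26.1 FPKM in C9orf89-CKO and 33.5 FPKM in Non-target. RHBDD2 lies in a stretch of chromosome 7, described further on, where the median log2 difference of 600 tested genes was 0.56. A level of RNA does not show whether a reading frame was broken, so it does not check the label. MAGI2 had 33, 52 and 48 fragments in RHBDD2-CKO and 55, 32 and 38 in MAGI2-CKO, all under 0.1 FPKM and so below the filter. In the fit without a filter its log2 difference was 0.12 (SE 0.17, limma adjusted p = 0.723). Of the other targeted genes, CARD19 was 1.21-fold higher in MAGI2-CKO (4.52, 5.17 and 4.69 against 5.38, 5.86 and 6.22 FPKM, adjusted p = 0.0425), a call lost in 8 of the alternatives (highest adjusted p 0.144), and MLPH was listed at 0 in every library.

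Relatives of the targeted genes were called at about the share of all genes. In the rhomboid and derlin family 2 of 13 tested genes were higher in RHBDD2-CKO and 3 higher in MAGI2-CKO (38.5% in all), none by 2-fold. RHBDL3, a rhomboid protease of the cell surface, was 1.78-fold higher in RHBDD2-CKO (adjusted p = 5.49e-04), and DERL1, a channel for export of misfolded proteins from the endoplasmic reticulum, 1.30-fold higher (adjusted p = 0.00158). RHBDF1, an inactive rhomboid that escorts the protease ADAM17, was 1.63-fold higher in MAGI2-CKO (adjusted p = 0.0151), and DERL3 1.58-fold (adjusted p = 0.0214), but both calls were lost without MAGI2-CKO replicate 2 and without RHBDD2-CKO replicate 1, and that of DERL3 also without MAGI2-CKO replicate 1 or RHBDD2-CKO replicate 3 (highest adjusted p over the alternatives 0.0619 and 0.114). Among MAGI and other membrane scaffolds 5 of 21 were higher in RHBDD2-CKO and 3 in MAGI2-CKO (38.1%). The polarity protein PARD6A was 2.02-fold higher in RHBDD2-CKO (adjusted p = 0.0102), and DLG5 1.42-fold higher in MAGI2-CKO (adjusted p = 9.42e-05).

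Ligand and receptor of the CXCL12 axis went in opposite directions. CXCL12 measured 3.06, 3.13 and 3.23 FPKM in RHBDD2-CKO and 0.907, 1.2 and 0.868 FPKM in MAGI2-CKO. All RHBDD2-CKO libraries were above all MAGI2-CKO libraries, and the ratio of means was 3.16 (log2 difference 1.58, SE 0.16, limma adjusted p = 6.83e-06). Both clones lay above the means of the other groups, 0.0135 FPKM in Non-target, 0.232 FPKM in MLPH-CKO and 0.686 FPKM in C9orf89-CKO. CXCR4 measured 4.46, 4.22 and 4.09 FPKM in RHBDD2-CKO and 34.9, 34.6 and 36.4 FPKM in MAGI2-CKO. It was 8.29-fold higher in MAGI2-CKO (log2 difference -3.02, SE 0.14, adjusted p = 6.86e-09), and here MAGI2-CKO was the group apart: the other 3 groups averaged 3.01 to 3.78 FPKM. CXCL16, a membrane-anchored chemokine, was 1.37-fold higher in RHBDD2-CKO (7.02, 8.64 and 6.64 against 5.09, 5.54 and 5.65 FPKM, adjusted p = 0.0079). ACKR3 stayed at no more than 3 fragments in any of the 6 libraries. Over the chemokine list, 7 of 13 tested genes were higher in RHBDD2-CKO and CXCR4 alone was higher in MAGI2-CKO, with a median log2 difference of 0.38. Without MAGI2-CKO replicate 1 the 7 became 5 and the median 0.25. Without the filter 7 and 2 of 48 were called, with a median of 0.01. The CKLF-like genes CMTM1 (1.72-fold) and CMTM4 (1.38-fold) were among the 7.

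The largest difference by log2 was that of LYPD1, a GPI-anchored protein that modulates nicotinic receptors. It measured 0.274, 0.245 and 0.153 FPKM in RHBDD2-CKO and 86.3, 94.7 and 98.1 FPKM in MAGI2-CKO. The ratio of means was 415 (log2 difference -8.19, SE 0.21, adjusted p = 4.45e-11), and no other group averaged above 3.25 FPKM. Other genes far higher in MAGI2-CKO were ZCCHC12, a coactivator in BMP signalling (1.28, 1.27 and 1.49 against 36.9, 33.7 and 34.1 FPKM), and LGALS3BP, a secreted galectin-binding glycoprotein (3.01, 3.71 and 3.00 against 66.1, 87.0 and 89.9 FPKM). They were 25.9-fold and 25-fold higher there (adjusted p = 3.26e-12 and 3.82e-10). G0S2, an inhibitor of triglyceride breakdown, was also among the 10 genes with the largest differences toward MAGI2-CKO, with 6 fragments in all in RHBDD2-CKO against 295 (counting ratio 43.3, 95% interval 19.7 to 119).

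In the other direction, BEX1, a small adaptor of neurotrophin signalling encoded on the X chromosome, measured 27.4, 13.5 and 17.8 FPKM in RHBDD2-CKO. In MAGI2-CKO it had 1 fragment in 3 libraries (counting ratio 996, 95% interval 178 to 39375, adjusted p = 2.21e-08). It was also at 0.0701 FPKM or lower in C9orf89-CKO and MLPH-CKO, and at 56.8 FPKM in Non-target. TENM1, a teneurin adhesion protein, was 50.6-fold higher in RHBDD2-CKO (10.2, 8.86 and 9.56 against 0.148, 0.208 and 0.211 FPKM), yet higher still in MLPH-CKO (19.3 FPKM). RBP7, a retinoid-binding protein, had 340 fragments in RHBDD2-CKO against 3 (counting ratio 129, 95% interval 43.7 to 627). The keratin-associated gene KRTAP19-1 was 66.6-fold higher (16.1, 10.6 and 10.4 against 0.159, 0.160 and 0.238 FPKM, 95% counting interval 32.3 to 168). Among abundant transcripts the largest FPKM differences toward RHBDD2-CKO were those of ACTB (beta-actin), HSPA8, YWHAE, GLO1 and ID4. ID4, an inhibitor of basic helix-loop-helix factors and a BMP target, measured 143, 163 and 148 against 31.3, 28.6 and 30.1 FPKM, a ratio of 5.05 (adjusted p = 1.68e-10) with every other group between 28.9 and 45.2 FPKM. HSPA8, a constitutive chaperone, was 1.56-fold (adjusted p = 3.20e-05) and GLO1, which clears methylglyoxal, 1.78-fold higher (adjusted p = 4.18e-06). YWHAE was 1.5-fold higher (adjusted p = 0.00895). ACTB was 1.41-fold higher (adjusted p = 0.0131), a call lost without MAGI2-CKO replicate 1 or RHBDD2-CKO replicate 2 (highest adjusted p 0.0599). The long non-coding RNAs with the largest differences were AC011442.1 (93 fragments against 2) and AL133215.3 (46 against 1) in RHBDD2-CKO, and LINC02575 (487 against 2) and AC120498.2 (59 against 1) in MAGI2-CKO. The 95% counting intervals of these ratios reached down to 14.2, 8.92, 59.1 and 8.97, in that order.

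A set of protein-coding genes was on in one clone, with a mean of at least 1 FPKM, and at or under 0.1 FPKM in every library of the other. There were 22 in each direction. On in MAGI2-CKO and without a fragment in RHBDD2-CKO were the cancer-testis genes SAGE1 (4.10, 4.14 and 3.82 FPKM, at least 67.6-fold), CT45A10 (at least 30.3-fold) and HORMAD1 (at least 28.2-fold), the copine CPNE7 (2.94, 3.92 and 3.19 FPKM, at least 58.2-fold), KLHDC9 (at least 30-fold), and PTN, the heparin-binding growth factor pleiotrophin (at least 27.7-fold). These bounds set 3 fragments in each library of the clone at 0, and CT45 genes share sequence, so that reads may be split between copies. SAGE1, CT45A10, HORMAD1, CPNE7 and KLHDC9 averaged above 1 FPKM in C9orf89-CKO and MLPH-CKO too, and below it in Non-target. On in RHBDD2-CKO and at 0 in MAGI2-CKO were SNX19, a sorting nexin of endosomes (3.85, 3.65 and 4.18 FPKM, at least 206-fold), PCDHGB5, a clustered protocadherin (1.92, 3.38 and 3.50 FPKM, at least 92.2-fold), and ZSCAN18, a zinc finger factor (2.69, 2.81 and 2.79 FPKM, at least 149-fold). SNX19 was also at or near 0 in C9orf89-CKO and MLPH-CKO (means 0.0187 and 0 FPKM). HORMAD1 was named after its values were seen. Of the 22 genes on in RHBDD2-CKO, 11 were at 1 FPKM or more in no other group, and of the 22 on in MAGI2-CKO 6 were.

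Promoter sequence of 1 gene from each direction is shown, since the clones read the genes out in opposite ways. They are the 150 bases that end 100 bases before the RefSeq start (GRCh38.p14), with each CG in capitals. The first is ZSCAN18, on in RHBDD2-CKO, at chr19:58118505-58118654 on the minus strand, and the second KLHDC9, on in MAGI2-CKO, at chr1:161098111-161098260 on the plus strand.
ZSCAN18: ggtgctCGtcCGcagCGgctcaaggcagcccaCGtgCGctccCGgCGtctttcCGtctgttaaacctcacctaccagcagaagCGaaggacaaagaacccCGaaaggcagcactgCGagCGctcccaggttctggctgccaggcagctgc
KLHDC9: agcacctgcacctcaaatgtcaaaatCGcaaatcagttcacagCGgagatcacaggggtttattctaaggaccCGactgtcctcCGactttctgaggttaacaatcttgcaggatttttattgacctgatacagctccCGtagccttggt
Over the 250 bases before the start, ZSCAN18 held 27 CG and KLHDC9 14. The median was 17.5 for the 16 genes on in RHBDD2-CKO that had a RefSeq promoter, 16 for the 14 on in MAGI2-CKO, and 22 for 9837 tested protein-coding genes. At least 10 CG were found in 75%, 71.4% and 87.7% of these promoters. DNA methylation was not measured.

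Of the 22 genes on in RHBDD2-CKO and off in MAGI2-CKO, 10 were zinc finger genes of chromosome 19, and none of the 22 in the other direction was. Zinc finger genes of this kind mostly encode DNA-binding repressors, many with a KRAB domain, and stand in clusters on chromosome 19. They were looked at as a group after these values were seen. Of 264 zinc finger genes listed on the chromosome (symbols that begin ZNF, ZSCAN, ZFP, ZIK or ZIM) 184 were tested, and 135 were higher in RHBDD2-CKO and 5 higher in MAGI2-CKO, and 98 and 1 by at least 2-fold. The 5 became 3 without MAGI2-CKO replicate 2 or 3. The median log2 difference of the 184 was 1.08, and over all alternatives that kept the filter it ranged from 0.63 (pseudocount 1) to 1.25. The filter counts the RHBDD2-CKO libraries too, and 18 of the 184 did not reach it in the 9 libraries outside the contrast. Of the 166 that did, a subset looked at after the values were seen, 117 were higher in RHBDD2-CKO and 5 in MAGI2-CKO, with a median of 0.99. With a mean of at least 1 FPKM the counts were 74 and 5 of 116 and the median 0.73. The 44 on the short arm had a median of 0.75 and the 140 on the long arm 1.24. Zinc finger genes on other chromosomes differed less, with 80 of 244 higher in RHBDD2-CKO, 49 higher in MAGI2-CKO and a median of 0.11. The other 705 protein-coding genes of chromosome 19 had 46 higher in RHBDD2-CKO and 206 in MAGI2-CKO, with a median of -0.17.

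Single members showed the size of it. ZNF329 measured 4.47, 4.48 and 4.46 FPKM in RHBDD2-CKO and 5 fragments in all in MAGI2-CKO (counting ratio 225, 95% interval 96.0 to 694). ZNF28 had 981 fragments against 5 (95% interval 95.1 to 688), and ZIK1 791 against 5 (76.6 to 555), and the groups did not overlap for either. ZIK1 averaged 0.252 FPKM in Non-target and less in C9orf89-CKO and MLPH-CKO, so it passed the filter only with the RHBDD2-CKO libraries. ZNF136, named after its values were seen, had 632 fragments against 0, at least 79.8-fold. ZNF114 went the other way (log2 difference -2.89, adjusted p = 1.81e-05). The median level of the 184 genes was 2.05 to 2.16 FPKM in the RHBDD2-CKO libraries and 0.884 to 0.979 FPKM in the MAGI2-CKO libraries. Non-target lay between them at 1.36 to 1.55 FPKM, and C9orf89-CKO and MLPH-CKO lay close to MAGI2-CKO at 0.938 to 1.07 FPKM. Between 20 and 22 of the tested members were under 0.1 FPKM in each MAGI2-CKO library and none in RHBDD2-CKO. The filter bears on these counts and on the medians, since 18 of the 184 did not reach it in the 9 libraries outside the contrast.

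Most genes of cholesterol synthesis were higher in RHBDD2-CKO. This pathway builds sterols from acetyl-CoA and is switched on by the factor SREBP-2 when membrane sterol is low. Of 34 tested members 24 were higher in RHBDD2-CKO and 2 higher in MAGI2-CKO, with a median log2 difference of 0.65 and a range of 0.57 to 0.70 over the alternatives that kept the filter. HMGCS1, which makes HMG-CoA, measured 31.8, 23.9 and 25.3 FPKM in RHBDD2-CKO and 10.6, 8.79 and 8.15 FPKM in MAGI2-CKO, a ratio of 2.94 (adjusted p = 1.15e-06). The late enzymes MSMO1 (31.5, 26.7 and 26.9 against 10.5, 10.2 and 9.81 FPKM) and SC5D (13.3, 11 and 11.9 against 4.31, 3.96 and 3.73 FPKM) were 2.79-fold and 3.02-fold higher. ACAT2, which joins acetyl-CoA units at the start of the pathway, was 2.39-fold higher (adjusted p = 1.23e-06). No MAGI2-CKO library reached any RHBDD2-CKO library for these 4 genes. SREBF2, which encodes SREBP-2 and was named after its values were seen, had a log2 difference of 0.89. The 2 members higher in MAGI2-CKO were NSDHL (-0.41) and INSIG1 (-0.28), which retains the SREBP complex in the endoplasmic reticulum. Only 1 was left without MAGI2-CKO replicate 2 or 3 or RHBDD2-CKO replicate 2. HMGCS1 averaged 30.7 FPKM in Non-target, 15 FPKM in C9orf89-CKO and 10.5 FPKM in MLPH-CKO, so RHBDD2-CKO stood near Non-target and MAGI2-CKO near MLPH-CKO.

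Genes that mark epithelial or mesenchymal cells, held in 1 list, differed in both directions. Of 22 tested genes 11 were higher in RHBDD2-CKO and 5 in MAGI2-CKO, the 5 falling to 3 without MAGI2-CKO replicate 2 or RHBDD2-CKO replicate 1. SNAI2 (Slug), a repressor of epithelial genes, measured 1.61, 1.36 and 1.63 FPKM in RHBDD2-CKO and 37.2, 33.4 and 32.5 FPKM in MAGI2-CKO. It was 22.4-fold higher in MAGI2-CKO (log2 difference -4.40, SE 0.09, adjusted p = 4.71e-12), and the other groups stood between, at 12.1 to 15.5 FPKM. ESRP2, a splicing factor of epithelial cells, measured 3.28, 3.83 and 3.99 FPKM against 0.102, 0.130 and 0.147 FPKM (29.3-fold, adjusted p = 1.34e-09). The desmosomal protein DSP (35.2, 36.1 and 37 against 9.51, 10.3 and 10.4 FPKM) was 3.58-fold higher in RHBDD2-CKO. SPINT2, an inhibitor of membrane serine proteases, was 3.81-fold higher (6.13, 6.03 and 5.40 against 1.46, 1.5 and 1.66 FPKM). The remaining members higher in MAGI2-CKO were the mesenchymal TWIST2 (log2 difference -0.77), VIM (-0.56), TWIST1 (-0.34) and ZEB2 (-0.32), the last pair with an adjusted p of up to 0.17 over the alternatives. CDH2 (N-cadherin), a mesenchymal cadherin, was higher in RHBDD2-CKO by 0.16, and the epithelial genes CDH1 (-0.26, adjusted p = 0.145) and KRT18 (-0.22, adjusted p = 0.151) did not pass the test. TWIST1, ZEB2, CDH1 and CDH2 were named after their values were seen.

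Of the extracellular matrix list 29 of 64 tested genes were higher in MAGI2-CKO and 13 in RHBDD2-CKO, with a median log2 difference of -0.29. Without the filter the counts were 30 and 15 of 104 and the median -0.06. Basement membrane genes were found on both sides. LAMA4, a laminin alpha chain of vessel walls, measured 2.71, 2.62 and 2.72 FPKM in RHBDD2-CKO against 0.592, 0.717 and 0.752 FPKM, a ratio of 3.90 (adjusted p = 6.33e-08). The laminin gamma chain LAMC3 was 3.12-fold higher in MAGI2-CKO (0.899, 1.03 and 0.882 against 2.24, 3.18 and 3.37 FPKM). NID2, which links laminin to collagen IV, was 2.87-fold higher (2.79, 3.33 and 3.25 against 8.09, 9.17 and 9.63 FPKM) and the collagen IV chain COL4A2 2.88-fold (2.02, 1.90 and 1.84 against 4.94, 5.47 and 6.21 FPKM). The libraries of the clones did not overlap for any of these 4. The receptors of the matrix showed no common direction, with 4 of 16 tested integrin subunits higher in RHBDD2-CKO and 3 in MAGI2-CKO. The laminin receptor chain ITGA6 was 2.76-fold higher in RHBDD2-CKO (7.53, 7.64 and 7.43 against 2.55, 3.09 and 2.56 FPKM, adjusted p = 5.76e-08), ITGA8 2.31-fold, ITGA2 1.81-fold and ITGAV 1.44-fold. The 3 higher in MAGI2-CKO, named after their values were seen, were the leukocyte chain ITGB2 (log2 difference -1.23, means 0.238 and 0.681 FPKM), the laminin receptor chain ITGA7 (-0.39, limma adjusted p = 0.0475, a call lost without any 1 MAGI2-CKO library or RHBDD2-CKO replicate 1, with adjusted p up to 0.313 over the alternatives) and the widely shared beta chain ITGB1 (-0.28).

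HEK293T cells express a set of neuronal genes, and many of these differed. Of 26 tested 11 were higher in RHBDD2-CKO and 9 in MAGI2-CKO, 3 and 8 of them by at least 2-fold. The neurofilament light chain NEFL measured 0.903, 0.914 and 1.14 FPKM in RHBDD2-CKO and 23.5, 25.4 and 25.3 FPKM in MAGI2-CKO. RHBDD2-CKO was the group apart, since the other 3 groups averaged 18.8 to 34.8 FPKM. The ratio was 25.1 (log2 difference -4.52, SE 0.09, adjusted p = 4.71e-12). The medium chain NEFM went the other way, with 306 fragments in RHBDD2-CKO against 7 (counting ratio 49.6, 95% interval 23.8 to 124). Both clones were low, since NEFM averaged 1.34 FPKM in RHBDD2-CKO and 19.3 to 27.2 FPKM in the other 3 groups. CRMP1, a tubulin-binding protein of growing axons, was 22.3-fold higher in MAGI2-CKO (0.671, 0.649 and 0.507 against 12.5, 14 and 14.2 FPKM). The growth cone protein GAP43 was 5.10-fold higher there (adjusted p = 8.88e-06). Of 8 HEK293T markers, 2 were higher in RHBDD2-CKO and 3 higher in MAGI2-CKO. The 2 fell to 1 without MAGI2-CKO replicate 2 or RHBDD2-CKO replicate 1 or 3. The neurofilament-related INA and VIM were among those higher in MAGI2-CKO, 2.05-fold and 1.47-fold.

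Transcription factors of kidney development numbered 31 tested, of which 7 were higher in RHBDD2-CKO and 10 in MAGI2-CKO. The 10 fell to 6 without MAGI2-CKO replicate 2 or RHBDD2-CKO replicate 1, to 5 with the 6 libraries alone and to 4 without replicate 1 of both clones, where 6 were higher in RHBDD2-CKO. By at least 2-fold 4 were higher in RHBDD2-CKO and 1 higher in MAGI2-CKO. The 4 with the largest differences were all higher in RHBDD2-CKO. They were the homeobox gene BARX2 (2.69, 2.73 and 2.13 against 0.380, 0.310 and 0.238 FPKM, 8.14-fold), TFAP2A, a factor of neural crest and distal nephron (14.6, 14.8 and 14.8 against 2.60, 2.21 and 2.64 FPKM, 5.94-fold), SOX4 (2.28-fold) and the hedgehog effector GLI3 (2.18-fold). No values overlapped for these 4, and the adjusted p ranged from 4.27e-10 for TFAP2A to 8.70e-05 for GLI3. Of 34 HOX genes 15 were higher in RHBDD2-CKO and 7 in MAGI2-CKO, and the 7 fell to 4 without MAGI2-CKO replicate 3 or RHBDD2-CKO replicate 1. All 11 tested HOX genes of chromosome 7 belong to the HOXA cluster, and 9 of them were higher in RHBDD2-CKO and none in MAGI2-CKO, among them HOXA3 (2.42-fold) and HOXA6 (1.86-fold). Among the other 23 the counts were 6 and 7, with a median of -0.05. HOXD13 measured 64.9, 66.0 and 65.1 FPKM in RHBDD2-CKO and 150, 143 and 146 FPKM in MAGI2-CKO (2.24-fold, adjusted p = 1.86e-09). HOXC12, named after its values were seen, was low in both (means 0.318 and 1.52 FPKM) and 4.78-fold higher in MAGI2-CKO.

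Members of the signalling lists were called at 38.5% (Notch) to 52.8% (WNT), against 41.6% over all genes. In the WNT list 19 of 53 tested genes were higher in RHBDD2-CKO and 9 in MAGI2-CKO, and the 9 fell to 5 without MAGI2-CKO replicate 2 or RHBDD2-CKO replicate 1. SFRP1, a secreted WNT antagonist, had 1 fragment in RHBDD2-CKO and 3.13, 3.15 and 2.81 FPKM in MAGI2-CKO (counting ratio 741, 95% interval 133 to 29290). The ligand WNT3A was 2.88-fold higher in MAGI2-CKO (0.451, 0.644 and 0.482 against 1.37, 1.78 and 1.40 FPKM), whereas WNT5B was 2.94-fold (1.56, 1.93 and 1.43 against 0.526, 0.527 and 0.619 FPKM) and the WNT5 receptor ROR2 5.53-fold higher in RHBDD2-CKO (2.00, 2.49 and 2.50 against 0.257, 0.479 and 0.528 FPKM). The adjusted p was at or below 1.16e-04 for each. For TGF-beta, activin and BMP signalling the counts were 12 and 12 of 49 and the median -3.49e-05. Beside ID4, the ligand BMP6 was 1.90-fold higher in RHBDD2-CKO (adjusted p = 4.21e-05), and GDF7 (2.17-fold) and the activin antagonist FSTL3 (1.99-fold) were higher in MAGI2-CKO.

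For FGF, EGF and GDNF ligands and receptors the counts were 9 and 6 of 30. The receptor ERBB3 was 2.95-fold higher in RHBDD2-CKO (1.72, 1.59 and 1.97 against 0.564, 0.582 and 0.646 FPKM), the neuregulin NRG2 3.54-fold higher in MAGI2-CKO (0.402, 0.431 and 0.666 against 1.37, 1.79 and 2.14 FPKM), and SPRED2, an inhibitor of the RAS pathway, 2.06-fold higher in RHBDD2-CKO. The ligand PSPN was 1.48-fold higher in MAGI2-CKO, a call lost in 6 alternatives (highest adjusted p 0.139). For the Notch pathway the counts were 6 and 4 of 26. The targets HEY1 (44.1, 49.5 and 47.8 against 109, 111 and 111 FPKM, 2.34-fold) and HES4 (1.84-fold) were higher in MAGI2-CKO, and the ligands DLL1 (1.62-fold) and DLK2 (1.72-fold) higher in RHBDD2-CKO.

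Cancer-testis antigens, which are normally expressed in germ cells and are mostly encoded on the X chromosome, were higher in MAGI2-CKO for 9 of 18 tested members and higher in RHBDD2-CKO for 3. MAGEA3 measured 9.85, 6.37 and 9.25 FPKM in RHBDD2-CKO and 68.4, 67.3 and 69.9 FPKM in MAGI2-CKO (8.07-fold, adjusted p = 5.66e-09), and MAGEA2B was 12.9-fold higher there. These near-identical copies may share reads. MAGEC2, named after its values were seen, was the reverse, with 144 fragments in RHBDD2-CKO and none in MAGI2-CKO (at least 18.2-fold). MAGEC2 averaged at most 0.0993 FPKM in every other group and passed the filter only with the RHBDD2-CKO libraries, which bears on its count among the 3. In the BEX and TCEAL cluster on the long arm of the X chromosome, 7 of 10 tested genes were higher in MAGI2-CKO. The whole arm lay the same way, with 159 of 356 tested genes higher in MAGI2-CKO, 47 higher in RHBDD2-CKO and a median log2 difference of -0.34. BEX5 was 13.2-fold (0.777, 0.444 and 0.116 against 8.24, 5.38 and 4.0 FPKM, 95% counting interval 8.55 to 20.1), BEX4 2.34-fold and BEX2 1.93-fold higher there (adjusted p = 1.98e-04, 1.23e-04 and 0.00279). BEX1 alone went the other way. Of 53 clustered protocadherins only 5 passed the filter, 2 of them not in the libraries outside the contrast, so the count of 4 higher in RHBDD2-CKO is partly set by the filter. Without a filter 21 of 46 were higher in RHBDD2-CKO and 1 in MAGI2-CKO. Beside PCDHGB5 the 4 included PCDHGC3 (2.23-fold) and PCDHGA11 (1.96-fold), whose exons overlap those of other members.

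Interferon-stimulated and MHC class I genes were higher in MAGI2-CKO for 15 of 34 tested members and in RHBDD2-CKO for 5, with a median log2 difference of -0.25. The antiviral membrane proteins IFITM1 (3.93, 3.66 and 3.30 against 17.2, 16.3 and 18.5 FPKM), IFITM2 (8.28, 5.78 and 6.37 against 23.4, 20.2 and 22.9 FPKM) and IFITM3 (1.47, 1.58 and 1.82 against 4.82, 6.54 and 6.54 FPKM) were 4.78-fold, 3.26-fold and 3.67-fold higher in MAGI2-CKO. They are neighbours of near-identical sequence, and reads may be shared between them. HERC5, the ligase for ISG15, was 2.43-fold higher in RHBDD2-CKO (6.58, 6.84 and 6.46 against 2.67, 2.83 and 2.69 FPKM). The class I gene HLA-B, named after its values were seen, had a log2 difference of -0.80.

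The difference between the clones also followed position. On chromosome 7, which carries both targeted genes, 360 of the 600 tested genes from the tip of the short arm to 51.6 Mb past the RHBDD2 start were higher in RHBDD2-CKO and 20 higher in MAGI2-CKO, with a median log2 difference of 0.56. Every 20-gene bin of this stretch had a median between 0.25 and 0.87. It includes both cut sites, and INSIG1 and PTN lie past its end. From 51.75 to 58.9 Mb the median of 60 genes was -0.03, with 8 and 10 called. From 59.1 Mb to the end of the long arm 73 of 143 genes were higher in MAGI2-CKO and 3 higher in RHBDD2-CKO, with a median of -0.42. These borders were read from the bins after the values were seen.

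Each library's median deviation from the mean of 15 showed which clone moved. In the first stretch the MAGI2-CKO libraries were at -0.43, -0.45 and -0.46 and those of the other 4 groups between 0.08 and 0.16. In the last stretch the RHBDD2-CKO libraries were at -0.31, -0.25 and -0.24 and the other 12 between 0.01 and 0.18. Gene copy number was not measured. HOXA3, HOXA6, GLI3, CDK6, ACTB and TWIST1 lie in the first stretch, as do CYCS, DNAJB9, NT5C3A and GRB10, which are described further on. Without chromosome 7, 3112 of 15372 tested genes were higher in RHBDD2-CKO and 3140 higher in MAGI2-CKO.

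Other arms shifted less than the short arm of chromosome 7 (median 0.60). Toward MAGI2-CKO the median log2 difference was -0.34 on Xq (47 genes higher in RHBDD2-CKO and 159 in MAGI2-CKO), -0.33 on 15q (21 and 223 of 536), -0.32 on 10q (27 and 232 of 502), -0.28 on 10p (9 and 64 of 141) and -0.26 on 14q (50 and 193 of 543). Toward RHBDD2-CKO the largest medians beside chromosome 7 were 0.21 on 4q (136 and 23 of 407) and 0.19 on 22q (147 and 48 of 442). Each of these medians kept its sign under quantile normalization, with a mean of at least 1 FPKM and with any library left out. CXCL12 lies on 10q, where most calls went the opposite way to it.

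Some abundant transcripts of ribosomal proteins and of the mitochondrial genome were higher in MAGI2-CKO. Of 85 tested cytosolic ribosomal protein genes 24 were higher in MAGI2-CKO and 1 in RHBDD2-CKO, with a median log2 difference of -0.26. The share called without a replicate block, 29.4%, was below the 41.6% over all genes. Under quantile normalization the counts were 12 and 7 and the median -0.06, and without RHBDD2-CKO replicate 1 the counts were 36 and 1. RPL4 measured 452, 413 and 407 FPKM in RHBDD2-CKO and 701, 727 and 745 FPKM in MAGI2-CKO (1.71-fold, adjusted p = 2.08e-05), and RPL10 was 1.89-fold higher (adjusted p = 1.74e-05). RPS29, RPS27 and RPS27L differed by 2.71-fold, 2.10-fold and 2.16-fold, but replicate 1 of RHBDD2-CKO was far above the others for RPS27 (557, 260 and 226 FPKM). The calls of RPS27, RPS12 and RPL13A were lost under quantile normalization, RPS27 also without any 1 of 5 libraries, and that of the elongation factor EEF1A1 (1.28-fold) was lost there with the sign reversed. These genes have close copies that may share reads.

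Mitochondrial transcripts were higher in MAGI2-CKO for 6 of 13 messenger RNAs and in RHBDD2-CKO for none, with a median log2 difference of -0.79. No call was left under quantile normalization (median -0.18) or without replicate 1 of both clones (-0.58), and 1 was left without MAGI2-CKO replicate 1 (-0.62). Leaving out MAGI2-CKO replicate 3, RHBDD2-CKO replicate 1 or RHBDD2-CKO replicate 3 left 3. Without the filter 1 was called. With a mean of at least 1 FPKM, with the 6 libraries alone or with voom weights the count was 9. MT-CO3, a subunit of cytochrome c oxidase, measured 1701, 1955 and 1927 FPKM against 3614, 3105 and 3329 FPKM (1.80-fold, adjusted p = 0.0122). The mitochondrial genome took 1.65% to 1.73% of the fragments in RHBDD2-CKO and 2.44% to 3.28% in MAGI2-CKO, with the highest share in MAGI2-CKO replicate 1. None of the 4 named mitochondrial calls held in every alternative (highest adjusted p 0.123 for MT-ND1, 0.206 for MT-CO3, 0.538 for MT-CYB and 0.648 for MT-ND2). Transcript length moved with these calls: genes with up to 1000 bases of exon had a median log2 difference of -0.23, and those with more than 8000 bases 0.13. Its part in the result was not tested.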

How the data were processed

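RNA from 3 wells of each clone was sequenced by the study, and the authors deposited FPKM values for 58735 genes in each of 15 libraries. The submitters' processing notes name HISAT2 2.0.5, featureCounts 1.5.0-p3 and DESeq2. The genome build is not given in the sources used here; all gene IDs were found in GENCODE v29 (GRCh38), which supplied symbols, positions and exon lengths. FPKM times exon length came out as whole multiples of 1 fragment for 100.0% of values (tolerance 0.001), which gave the fragments per gene and library. The precision of low genes is set by these counts, and counting intervals (95%, exact binomial) cover counting error only.

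A gene was tested if 3 or more of the 15 libraries reached 0.5 FPKM. The tool was limma 3.58.1 (R 4.3.3) with an empirical Bayes trend on log2(FPKM + 0.1). The 5 groups were fitted together and RHBDD2-CKO minus MAGI2-CKO was taken as the contrast, with a Benjamini-Hochberg adjusted p of 0.05 over 16175 genes. Fold values in the text are ratios of mean FPKM unless a log2 difference is named. The fit was tested on simulated data for RHBDD2-CKO against MAGI2-CKO (16175 genes), where 144 of 200 genes changed by 2-fold were recovered and 8 unchanged genes were called. The simulation gave all genes the same dispersion, set no replicate apart and changed few genes, so its error counts need not hold for the real libraries. Named genes were the fixed targets and chemokine genes, the 10 protein-coding genes with the largest log2 difference in each direction (mean of at least 1 FPKM, no overlap), the 5 with the largest FPKM difference in each direction, 2 long non-coding RNAs in each direction, and up to 4 genes of each of 31 lists. Some genes under this rule are not reported here. The members and lists were chosen with earlier results of these data known. Alternatives were other pseudocounts (0.01 and 1), filters, quantile normalization, no trend, the 6 libraries alone, a replicate block and each library left out. Promoter sequences came from RefSeq (GRCh38.p14).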

Additional observations from a re-analysis of the deposited data

How the results depend on the processing

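The counts of genes past the threshold stayed within 1.5 times 6726 in all alternatives run, from 5617 to 8066. The count at least 2-fold apart (1534, of which 676 were higher in RHBDD2-CKO and 858 in MAGI2-CKO) fell with a pseudocount of 1 to 568 (248 and 320), since a larger pseudocount shrinks the fold of low genes, and with a mean of at least 1 FPKM to 883 (381 and 502), since fewer genes were tested. Leaving out 1 library gave 5682 to 6310 genes, of which 2983 to 3292 were higher in RHBDD2-CKO and 2692 to 3018 in MAGI2-CKO, and 1446 to 1548 at least 2-fold apart (647 to 684 and 799 to 876). Under quantile normalization EEF1A1 reversed (log2 difference 0.23, adjusted p = 0.156 by limma), and the cause was not tested. Of 144 named genes past the threshold, 129 stayed past it in every alternative and 15 were lost in at least 1. With the replicate number of the labels as a block 8066 genes passed. Samples of the same number share only that number in the labels, although replicate 1 stood apart in each of the 5 groups, and the deviations of same-numbered libraries correlated at 0.225, 0.0768 and 0.0845; each RHBDD2-CKO library correlated best with its own number in the MAGI2-CKO clone. Among the lists, the block raised the genes higher in MAGI2-CKO from 24 to 49 for ribosomal proteins (of 85, with 2 the other way, so that the share called was then above the 8066 of 16175 over all genes), from 16 to 31 for the nuclear respiratory chain, from 6 to 10 for mitochondrial messenger RNAs, from 5 to 14 for the zinc finger genes of chromosome 19 and from 2 to 4 for cholesterol synthesis. It moved membrane scaffolds from 5 and 3 to 8 and 5, and YAP and TAZ targets higher in RHBDD2-CKO from 2 to 5. With a mean of at least 1 FPKM, under which fewer genes were tested, the counts for FGF, EGF and GDNF genes fell from 9 and 6 to 5 and 3, the cancer-testis antigens higher in RHBDD2-CKO from 3 to 1 and the imprinted genes higher in MAGI2-CKO from 4 to 2. Under quantile normalization the stress response genes higher in RHBDD2-CKO rose from 7 to 11, and the cause was not tested. Weights by voom on the recovered fragments (6999 genes) and leaving out replicate 1 of both clones (5617) were chosen after seeing the data. Depth limits the genes with few fragments.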

Other observations

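Regulators of cell death were called at about the share of all genes (45.9% against 41.6%), with 10 of 37 higher in RHBDD2-CKO and 7 in MAGI2-CKO. TNFRSF10D, a decoy receptor for the death ligand TRAIL, had 9 fragments in RHBDD2-CKO and measured 2.10, 1.81 and 2.14 FPKM in MAGI2-CKO (counting ratio 40.7, 95% interval 21.2 to 89.7). RIPK1, a kinase downstream of death receptors, was 2.14-fold higher in RHBDD2-CKO (11.1, 11.8 and 12.2 against 4.77, 5.63 and 6.07 FPKM, limma adjusted p = 3.05e-07), and so were the pro-apoptotic BH3-only genes BIK (5.83-fold, 95% counting interval 3.80 to 9.39) and HRK (2.19-fold). In the cell cycle list 19 of 55 genes were higher in RHBDD2-CKO and 8 in MAGI2-CKO. The D-type cyclins CCND2 (0.992, 0.924 and 0.850 against 5.63, 5.10 and 4.78 FPKM) and CCND1 (3.01, 3.63 and 3.11 against 8.57, 8.78 and 8.95 FPKM) were 5.61-fold and 2.70-fold higher in MAGI2-CKO, while their partner kinase CDK6 was 2.08-fold and the S phase factor E2F3 2.64-fold higher in RHBDD2-CKO. Of the genes of nucleoside uptake and cytarabine metabolism, 9 of 27 were higher in RHBDD2-CKO and 8 in MAGI2-CKO; outside chromosome 7 the counts were 8 and 8 of 25. The 8 of all 27 higher in MAGI2-CKO fell to 5 without MAGI2-CKO replicate 3 and with the 6 libraries alone. The nucleotidase NT5C3A, on chromosome 7, was 2.13-fold higher in RHBDD2-CKO, and the nucleotidases NT5C and NT5M, both 1.77-fold, and the transporter SLC29A3, 1.98-fold, were higher in MAGI2-CKO.

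In the stress response list 7 of 46 genes were higher in RHBDD2-CKO and 13 in MAGI2-CKO. CHAC1, which degrades glutathione (5.32, 6.97 and 5.76 against 14.2, 16.4 and 19.2 FPKM), and DDIT4, an inhibitor of mTORC1 (22.5, 20.9 and 22.4 against 50, 55.9 and 60.6 FPKM), were 2.75-fold and 2.53-fold higher in MAGI2-CKO, and the chaperones HYOU1 (1.87-fold) and DNAJB9 (1.83-fold) higher in RHBDD2-CKO. DNAJB9 and CYCS lie in the stretch of chromosome 7 whose median log2 difference was 0.56, and at 0.85 each they differed in the same direction as that stretch. For hypoxia and glycolysis the counts were 9 and 9 of 37. The neuronal glucose transporter SLC2A3 was 10.9-fold higher in MAGI2-CKO (0.349, 0.470 and 0.249 against 3.52, 3.97 and 4.10 FPKM), PFKP 2.55-fold and NDRG1 2.07-fold, and the pyruvate dehydrogenase kinase PDK1 was 2.29-fold higher in RHBDD2-CKO. Of 20 imprinted genes 7 were higher in RHBDD2-CKO and 4 in MAGI2-CKO, among them the neighbours PHLDA2 (2.64-fold) and CDKN1C (2.04-fold) in RHBDD2-CKO and SLC22A18 (2.67-fold) in MAGI2-CKO, and GRB10 on chromosome 7 (1.38-fold) in RHBDD2-CKO. Of 80 nuclear genes of the respiratory chain 9 were higher in RHBDD2-CKO and 16 in MAGI2-CKO, with ATP5F1A 1.91-fold and CYCS 1.84-fold higher in RHBDD2-CKO, and NDUFB4 1.67-fold and NDUFB1 2.05-fold higher in MAGI2-CKO, the last a call lost in alternatives (highest adjusted p 0.151). The 16 fell to 9 without RHBDD2-CKO replicate 2 and to 10 without RHBDD2-CKO replicate 3. Of 17 YAP and TAZ targets 2 and 3 were called, with FOXF2 (1.62-fold) and WWC1 (1.53-fold) higher in RHBDD2-CKO, and AMOTL2 (1.98-fold) and AJUBA (1.55-fold) in MAGI2-CKO.

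The median of the group means (log2 scale) of Non-target, C9orf89-CKO and MLPH-CKO was set beside the clones. Of the 676 genes at least 2-fold higher in RHBDD2-CKO, it lay nearer to MAGI2-CKO for 370 and nearer to RHBDD2-CKO for 306. Of the 858 at least 2-fold higher in MAGI2-CKO it lay nearer to MAGI2-CKO for 589 and nearer to RHBDD2-CKO for 269.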
